A study of Mus musculus with 8 samples.

Results

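The genes described here build the contractile and adhesive apparatus of the fibroblast: 35 genes of actomyosin, stress fibres and focal adhesions, taken by gene symbol and not by any measured value. All 35 had a probe with enough signal to be tested, among 17093 features tested in the series. The cells were dermal cells from the skin of newborn C57BL/6 mice, kept in culture and transfected either with control oligonucleotides (controls 1, 3, 6 and 8) or with oligonucleotides that mimic miR-127-3p, a microRNA (samples 2, 4, 5 and 7), so that every group had been through a transfection. The labels' treatment field of controls 3 and 6 names either oligonucleotide, and their titles and source names place them with the controls. Nothing in the labels says whether the 4 samples of a group came from separate mice or cultures, so a p-value measures only the spread between these samples, which may be technical. Each sample was read on its own single-colour array, and all 8 fibroblast markers looked for (Col1a1, Col1a2, Pdgfra, Pdgfrb, Thy1, Vim, Dcn and Lum) were well above background on all 8 arrays. Per array, 20756 to 23472 probes were well above background, and no spot of a member was saturated.

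Stress fibres are bundles of actin filaments and myosin II that let a fibroblast pull on its surroundings. Tropomyosins and caldesmon regulate the filaments, α-actinins, filamins and palladin cross-link them, and talin, vinculin, paxillin and zyxin tie them to integrins at focal adhesions. When a skin fibroblast becomes a myofibroblast, as in wound healing and scarring, it adds proteins otherwise typical of smooth muscle, above all α-smooth muscle actin (Acta2). Many of these genes are switched on by serum response factor (SRF) with its cofactors of the myocardin-related family (MRTF), which bind the CArG box, and by TEAD factors, which bind the MCAT element. The series' title places the microRNA in myofibroblast senescence, and the comparison asks whether the mimic changed the transcripts of this machinery.

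The guide strand that the mimic stands in for is encoded at chr12:109592888-109592909 on the plus strand (GRCm38.p6), and is shown because it is the agent that distinguishes the groups. Its sequence is from RefSeq, and capitals mark the seed, bases 2 to 8.
miR-127-3p: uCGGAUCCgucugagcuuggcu
The mature microRNA was not measured in the values analysed here.

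RefSeq promoter windows (GRCm38.p6, 250 bases before to 50 after a gene start, 300 in all) were found for 29 of the 35 genes, as 37 windows. The other 6 genes had no window and were not searched. The CArG box was searched for in its strict form (CC, then only A or T, then GG), and looser forms were not looked for. A strict CArG box was found in 5 of the 37 windows (13.5%), against 1.63% of all 32851 windows. Its matches are shown with 10 bases on each side, because none of the 5 genes that hold them passed the test between groups. Capitals mark the CArG box.
Myl9, chr2:156775293-156775322, plus strand: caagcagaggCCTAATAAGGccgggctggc
Cnn2, chr10:79988534-79988563, plus strand: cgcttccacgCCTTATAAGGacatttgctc
Myl6, chr10:128493040-128493069, minus strand: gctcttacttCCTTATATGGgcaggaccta
Actg1, chr11:120348566-120348595, minus strand: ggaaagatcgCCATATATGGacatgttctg
Vcl, chr14:20929161-20929190, plus strand: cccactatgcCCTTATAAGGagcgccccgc

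The MCAT core (CATTCC, or GGAATG on the other strand) was found in 13 of the 37 windows (35.1%), which belong to 12 genes, against 14.7% of all windows. Shown are the 3 genes that rose with groups that did not overlap, and Acta2, the usual myofibroblast marker. The choice was thus made by result. The core was also found for Actn4, Flna, Lmod1, Myh10, Mylk, Tagln2, Tpm1 and Vcl, and none of these or Acta2 passed the test between groups. Capitals mark the MCAT core. Cald1, Flnc and Palld have more than 1 window, and which start these cells used was not analysed.
Cald1, chr6:34598341-34598366, plus strand: gcatgcctagGGAATGacaggcatct
Flnc, chr6:29433142-29433167, plus strand: ggccgggcggCATTCCtgggaggccg
Palld, chr8:61760161-61760186, minus strand: acattagcaaCATTCCtgcccaggac
Acta2, chr19:34255504-34255529, minus strand: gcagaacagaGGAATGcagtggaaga
A match to these letters is a description of the sequence and not evidence that a factor binds there.

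Of the 35 genes, 4 rose with the mimic and 0 fell: Cald1, Flnc, Palld and Zyx (limma, adjusted p under 0.05 over all 17093 features). That is 11.4% of the list, where 34.2% of all features passed in either direction, 15.9% higher and 18.3% lower. Among the 12031 features with a gene symbol the shares were 38.4%, 18.2% and 20.1%. At an unadjusted p under 0.05, 6 of the 35 genes were higher (Csrp2 and Tpm1 besides the 4) and 0 lower. The median log2 fold change of the list was 0.14, against 0.02 over all features. Positive changes were seen for 28 of the 35 genes, most of them within the spread between arrays. The control and mimic arrays did not overlap for 3 genes (8.57%), as against 34.2% of all features. Without control 3 the count of rises was 6, with Tpm1 and Tpm2 added, and the same 6 genes passed with mimic sample 5 left out as well. With control 8 and mimic sample 2 both left out it was 2, Cald1 and Flnc; both of these pairs were chosen after the data were seen. In a bulk culture, more cells expressing a gene and more RNA per cell cannot be told apart.

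None of the 10 smooth muscle markers (Acta2, Actg2, Tagln, Cnn1, Myl9, Mylk, Myh11, Lmod1, Tpm2 and Csrp1) passed the test (limma; 0 also at an unadjusted p under 0.05), and all 4 rises were among the other 25 genes of the general cytoskeleton. Those counts are 0% of the markers and 16% of the general cytoskeleton, where 34.2% of all features passed. The median log2 fold change was 0.21 for the smooth muscle markers and 0.13 for the general cytoskeleton. The markers varied more from array to array: their median SD within a group was 0.33 on the log2 scale, against 0.19 for the general cytoskeleton and 0.18 over all features. Median absolute fold changes were 0.22, 0.16 and 0.27. Which class a gene went to was a choice, and the general class also holds Flnc, the filamin of striated muscle. Cald1, which rose, and Tpm1 and Csrp2, which did not pass, might also have been placed with the smooth muscle markers. The counts per class depend on that choice. No test was made of the difference between the classes.

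**Figure D1:**
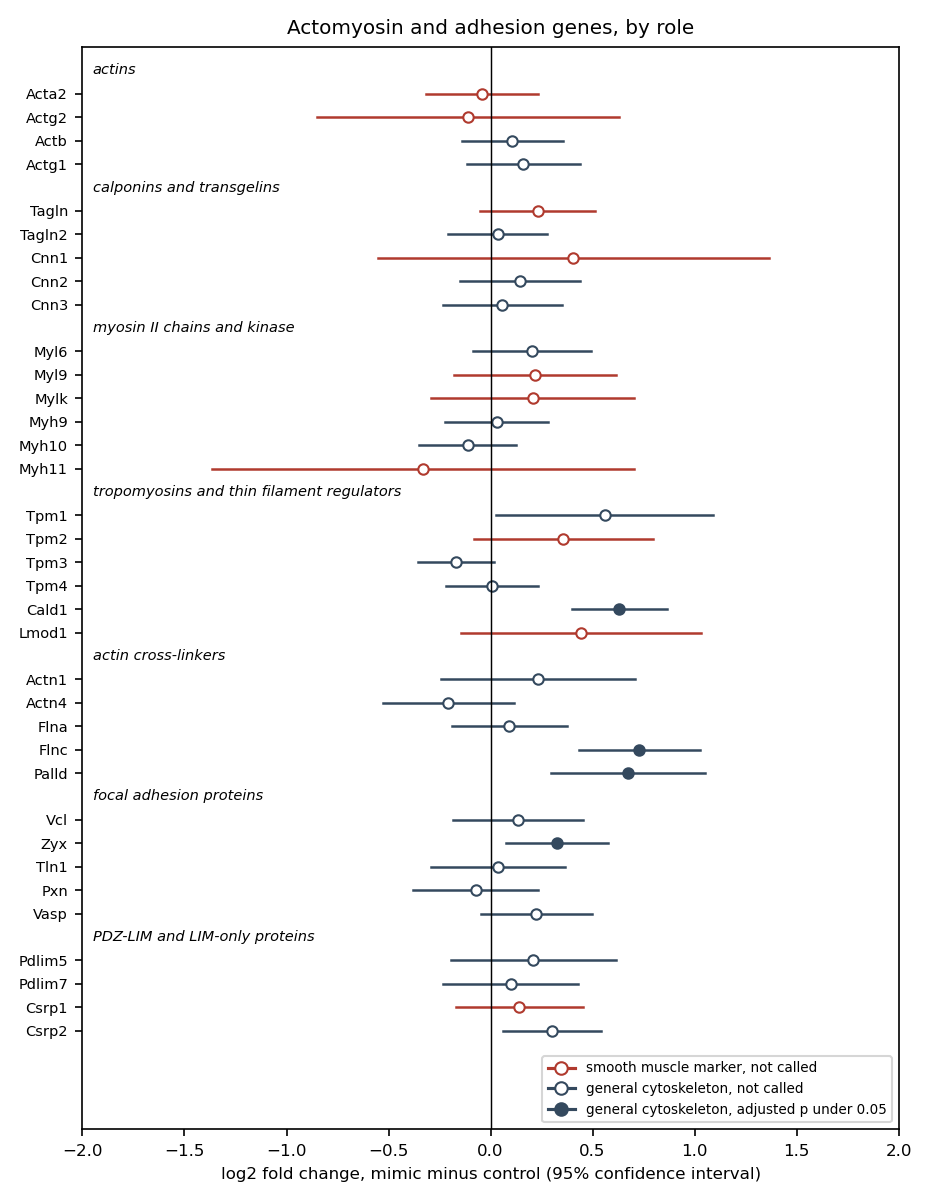
Log2 fold change (mimic minus control, 4 against 4 arrays) of the 35 genes with its 95% confidence interval, grouped by role; red marks smooth muscle markers, dark blue the general cytoskeleton, and filled points an adjusted p under 0.05. The filled points are Cald1, Flnc, Palld and Zyx, and every red interval spans 0.

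Missing the threshold does not show that a gene stayed level, so the 95% confidence intervals of the fold changes were read as well. They lay between -1 and 1, within a 2-fold change, for 29 of the 35 genes and for 7 of the 10 smooth muscle markers. The interval reached past a 2-fold change for Cnn1, Myh11, Tpm1, Lmod1, Flnc and Palld. Values below are log2 signals relative to the 75th percentile of the same array, given for controls 1, 3, 6 and 8 and for mimic samples 2, 4, 5 and 7, in that order. They compare arrays for 1 gene, and levels of different genes are not comparable, because each probe has its own response.

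Among the actins, the filament subunits themselves, none passed. Acta2 measured 9.59, 9.65, 9.53 and 9.34 in controls and 9.22, 9.52, 9.71 and 9.50 with the mimic. The lowest and the highest of its 8 values were both mimic arrays, so the groups overlapped throughout. Its log2 fold change was -0.04 (SE 0.12, adjusted p = 0.810 by limma), with an interval from -0.32 to 0.23. Actg2, the enteric smooth muscle actin, measured 7.52, 8.22, 7.46 and 7.03 in controls and 6.76, 7.47, 8.17 and 7.40 with the mimic. Its groups overlapped across nearly their whole range, and the log2 fold change was -0.11 (SE 0.32, adjusted p = 0.821). The cytoplasmic actins that every cell makes gave 0.11 for Actb and 0.16 for Actg1 (adjusted p = 0.482 and 0.341), the 5 probes of Actg1 lying between 0.06 and 0.16. The coding sequences of the actins are alike, and whether a probe also captures another actin was not tested.

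Calponins and transgelins bind along actin filaments, and 0 of 5 passed. Tagln (SM22α), an early smooth muscle marker, measured 9.47, 9.54, 9.38 and 9.13 in controls and 9.35, 9.64, 9.77 and 9.68 with the mimic. Of the mimic arrays, 3 lay above every control and sample 2 lay below 3 of the 4 controls. The fold change was 0.23 (SE 0.12, adjusted p = 0.183). Cnn1, the calponin of differentiated smooth muscle, measured 6.91, 7.71, 6.55 and 5.92 in controls and 6.33, 7.45, 7.87 and 7.07 with the mimic. It had a wide spread in both groups (SD 0.74 and 0.65), larger than the difference between the group means of 0.41 (SE 0.42, adjusted p = 0.490). The isoforms found outside smooth muscle changed by 0.14 (Cnn2), 0.06 (Cnn3) and 0.03 (Tagln2), with adjusted p-values of 0.427, 0.761 and 0.833.

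Myosin II supplies the pulling force, and 0 of its 6 genes passed. The light chain gene Myl9, whose phosphorylation switches the motor on, measured 8.60, 8.95, 8.45 and 8.27 in controls and 8.50, 8.81, 9.12 and 8.70 with the mimic. Control 3 exceeded 3 of the 4 mimic arrays, and the fold change was 0.22 (SE 0.17, adjusted p = 0.370). Mylk, the kinase that phosphorylates it, measured 1.34, 0.60, 0.59 and 0.80 in controls and 0.69, 1.52, 0.97 and 0.97 with the mimic. Control 1 was above all mimic arrays but sample 4, and the change was 0.21 (SE 0.22, adjusted p = 0.499). Myh11, the smooth muscle heavy chain, measured 0.59, 1.26, 0.56 and -0.19 in controls and -0.87, 0.32, 1.30 and 0.14 with the mimic. The mimic arrays alone spanned from the lowest to the highest of the 8 values, the widest within-group spread among the 35 genes (pooled SD 0.76). Its log2 fold change was -0.33 (SE 0.45, adjusted p = 0.609). The non-muscle heavy chains Myh9 and Myh10 changed by 0.03 and -0.11 and the light chain Myl6 by 0.20, with intervals from -0.22 to 0.28, -0.35 to 0.13 and -0.09 to 0.49.

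Thin filament regulators held the first gene that rose. Cald1 encodes caldesmon, which binds actin, myosin and tropomyosin and restrains the motor. It measured 4.63, 4.73, 4.40 and 4.39 in controls and 5.17, 5.25, 5.18 and 5.05 with the mimic. All mimic arrays lay above all controls. The log2 fold change was 0.63 (SE 0.10, adjusted p = 0.00214), or 1.55-fold, and its second probe gave 0.57 with groups that likewise did not overlap. Lmod1, a leiomodin that seeds actin filaments in smooth muscle, measured -1.06, -0.78, -1.73 and -1.22 in controls and -1.10, -1.07, -0.15 and -0.69 with the mimic. Its 2 highest values were mimic arrays and its 2 lowest controls, yet the middle ones were mixed, and the change of 0.44 (SE 0.26) had an adjusted p of 0.216.

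Tropomyosins lie along the actin filament and are made in many isoforms by alternative promoters and splicing, so several probes can read different transcripts of 1 gene. Tpm1 measured 5.71, 6.49, 5.98 and 5.65 in controls and 6.18, 6.33, 7.04 and 6.51 with the mimic by its brightest probe. Control 3 stood among the mimic arrays while the other 3 controls lay below all of them. Its log2 fold change was 0.56 (SE 0.23, adjusted p = 0.0979). Without control 3 it was 0.74 and passed (adjusted p = 0.0283), and with the mean of its 5 probes it was 0.11 (adjusted p = 0.659). The other 4 probes gave 0.31, -0.00017, -0.08 and -0.23, and none of the 5 passed a fit over the 21964 probes tested, of which 33.8% did.

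Tpm2, a tropomyosin of smooth and skeletal muscle, measured 7.13, 7.85, 7.23 and 7.17 in controls and 7.49, 7.77, 8.06 and 7.49 with the mimic. Control 3 again stood among the mimic arrays, and the other controls lay below them. The fold change was 0.36 (SE 0.19, adjusted p = 0.185) and 0.41 on the second probe; without control 3 it was 0.52 and passed (adjusted p = 0.0304). Tpm3 measured 7.67, 7.74, 7.70 and 7.57 in controls and 7.51, 7.40, 7.64 and 7.46 with the mimic. Of its mimic arrays, 3 lay below every control and sample 5 did not. The change was -0.17 (SE 0.08, adjusted p = 0.142), while a dimmer probe annotated to another Tpm3 transcript gave 0.30. Under quantile normalization Tpm3 fell (-0.24, adjusted p = 0.0483). Tpm4 measured 7.84, 7.85, 7.77 and 7.60 in controls and 7.65, 7.70, 7.98 and 7.76 with the mimic, which overlapped fully, with a change of 0.01 (SE 0.10, adjusted p = 0.964).

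**Figure D2:**
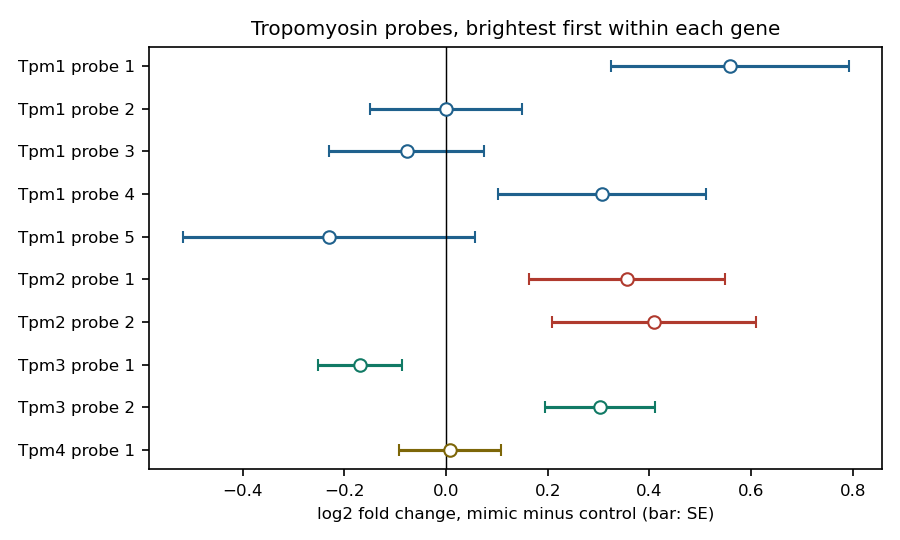
Log2 fold change (mimic minus control) of each tropomyosin probe with its SE, the brightest probe of each gene first. The 5 Tpm1 probes ran from -0.23 to 0.56, and the 2 Tpm3 probes lay on opposite sides of 0.

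Cross-linkers of actin filaments held 2 of the 4 rises. Flnc encodes filamin C, the filamin of striated muscle, which is also made by other contractile cells. Its values were 5.28, 5.38, 4.92 and 4.89 in controls and 5.79, 5.91, 5.97 and 5.72 with the mimic. Every mimic array exceeded every control, and the difference was 0.73 on the log2 scale (SE 0.13, adjusted p = 0.00343), or 1.66-fold. Palld encodes palladin, a scaffold of the dense bodies in stress fibres. It measured 5.20, 5.70, 5.16 and 5.07 in controls and 5.79, 5.97, 6.27 and 5.79 with the mimic. Control 3 came within 0.1 of the lowest mimic array but did not reach it, and the change was 0.67 (SE 0.165, adjusted p = 0.0143), or 1.59-fold. With control 8 and mimic sample 2 both left out, its adjusted p was 0.0533.

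The relatives of these genes did not follow them past the threshold. Flna, the filamin of most cells, changed by 0.09 (interval -0.19 to 0.37), where Flnc changed by 0.73 (interval 0.43 to 1.03). The difference between the filamins was not tested. The α-actinins gave 0.23 for Actn1 and -0.21 for Actn4, with adjusted p-values of 0.422 and 0.290.

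Zyxin and its neighbours sit where stress fibres meet the focal adhesion. Zyx, which moves to stress fibres under tension, measured 7.10, 7.42, 6.98 and 7.00 in controls and 7.47, 7.45, 7.53 and 7.35 with the mimic. Control 3 exceeded mimic sample 7, so the groups overlapped. The log2 fold change was 0.32 (SE 0.11, adjusted p = 0.0499), and the call was lost in 14 of 20 alternatives, among them the removal of any 1 array other than control 3 (adjusted p up to 0.121). The remaining focal adhesion genes did not pass: 0.13 for vinculin (Vcl), 0.04 for talin (Tln1), -0.07 for paxillin (Pxn) and 0.22 for Vasp, which extends actin filaments. A second, dimmer probe of Vcl rose by 0.53 (SE 0.14, adjusted p = 0.0194 over probes) with groups that did not overlap, so that the probes of this gene disagree. Pxn was well above background on 3 of the 4 mimic arrays.

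PDZ-LIM and LIM-only proteins dock on α-actinin and zyxin, and 0 of 4 passed. Csrp1, which is abundant in smooth muscle, measured 9.02, 9.06, 8.78 and 8.65 in controls and 8.76, 9.04, 9.28 and 9.01 with the mimic. The groups overlapped, with a change of 0.14 (SE 0.14, adjusted p = 0.460). Its relative Csrp2 changed by 0.30 (SE 0.105, adjusted p = 0.0541) and passed in 5 of 20 alternatives. Pdlim5 and Pdlim7 changed by 0.21 and 0.10. The second probe of Pdlim7 rose (0.43, adjusted p = 0.0370 over probes) although its groups overlapped, and its dimmest tested probe gave -0.11. In all, 6 of the 56 probes of these genes rose and 0 fell over probes, where 33.8% of all probes passed in either direction. These were both probes of Cald1 and 1 each of Flnc, Palld, Vcl and Pdlim7, while the probe of Zyx had an adjusted p of 0.0520.

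**Figure D3:**
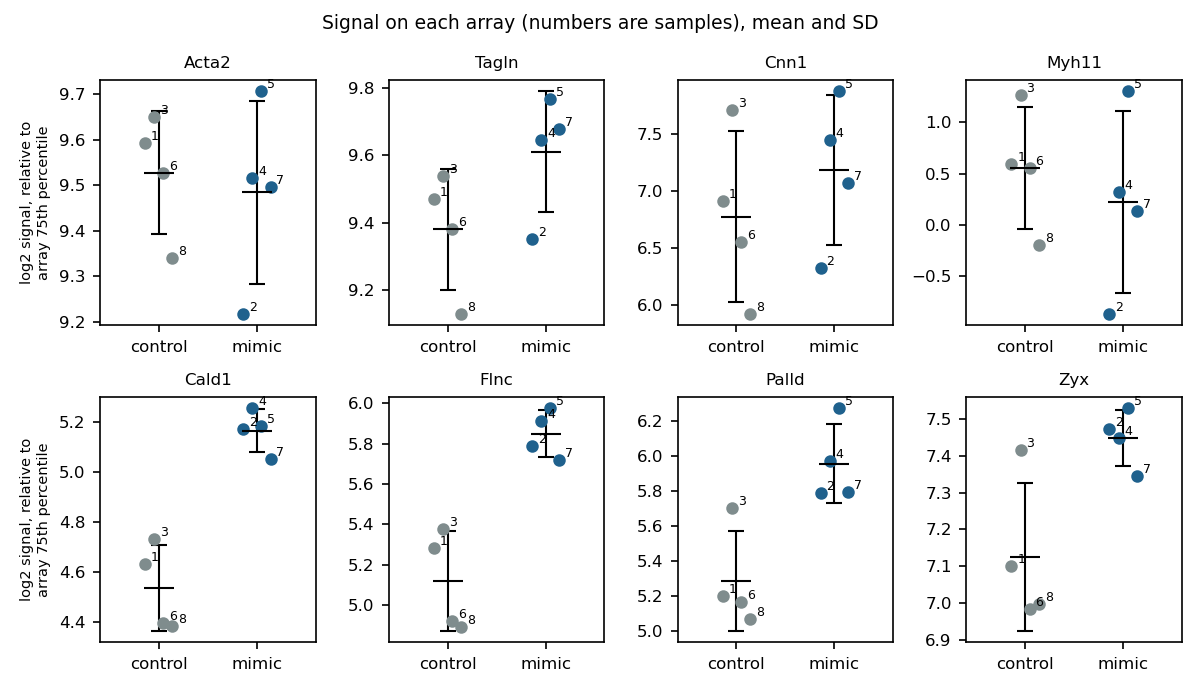
Log2 signal relative to the 75th percentile of the array on each of the 8 arrays (numbers are samples) with the group mean and SD, for 4 smooth muscle markers (top) and the 4 genes that rose (bottom). In the top row samples 3 and 5 are the highest of their groups and samples 8 and 2 the lowest; the mimic arrays of Cald1, Flnc and Palld lie above all controls.

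The genes moved together between arrays of the same treatment. Control 3 was the highest control for 30 of the 35 genes (85.7%), where it was the highest for 35.9% of all features. Mimic sample 5 was the highest mimic array for 29 of the 35 (82.9%, against 32.4% of all features). At the other end, control 8 was the lowest control for 22 genes (62.9%, against 33.4%) and mimic sample 2 the lowest mimic array for 23 (65.7%, against 28.8%). These counts are descriptions, since genes measured on the same array are not independent.

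Markers of other cells also differed on these arrays. Of the 9 tested skeletal muscle markers other than Acta1, all 9 were lowest of the controls on control 3 and 8 were lowest of the mimic arrays on mimic sample 5. Their summed signal, in units of the 75th percentile of the array, was 39.2, 7.06, 38.2 and 21.5 in controls 1, 3, 6 and 8 and 20.3, 33.7, 5.50 and 37.3 in mimic samples 2, 4, 5 and 7. Control 3 and mimic sample 5, on which most of the 35 genes were highest, thus had the least signal of these 9 markers. The reverse did not hold, since control 8 and mimic sample 2 did not have the most. Acta1, the skeletal actin, was instead the highest of its group on control 3 and mimic sample 5. Summed over all 12 listed markers, Acta1 among them, the signal was lowest on control 8 (51.6) and mimic sample 2 (49.9). On control 3 and mimic sample 5 that sum was 77.6 and 74.2. The keratinocyte sum followed the order of the 35 genes at both ends. It was 21.0 on control 3 and 27.4 on mimic sample 5, the highest of their groups. On control 8 and mimic sample 2 it was 11.1 and 15.8, the lowest. Of the 5 tested keratinocyte markers, 4 were highest on control 3 and 2 on mimic sample 5, while Krt10 was lowest on both. Mimic sample 4 came close to sample 5, with a sum of 26.1 and 2 markers at their highest. The 8 fibroblast markers were mixed. On control 3, 4 of them were lowest and 1 highest of the controls. On mimic sample 5, 3 were lowest and 3 highest of the mimic arrays. Pdgfra, Dcn and Lum were lowest on both arrays, and Vim was highest on both. Of 9 macrophage markers, 8 were lowest of the mimic arrays on mimic sample 5. On control 3, 3 of the 9 were lowest and 3 highest of the controls. The part of these cells in the array pattern was not tested.

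The deviations of the 35 genes were wider among the smooth muscle markers. Their median deviation from the mean of the group was 0.40 on control 3 and 0.34 on mimic sample 5, and -0.24 on control 8 and -0.31 on mimic sample 2. For the general cytoskeleton the same medians were 0.20, 0.18, -0.15 and -0.14. Over all features they were 0.03, 0.02, -0.04 and 0.00251. Control 3 was the highest control for 9 of the 10 markers and mimic sample 5 the highest mimic array for 9 of 10, the exception being Mylk. Within-group SD was larger than in 97.6% of all features for Myh11, 97.1% for Cnn1 and 94.1% for Actg2, while Acta2 and Tagln lay near the middle (48.4% and 51.0%).

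**Figure D4:**
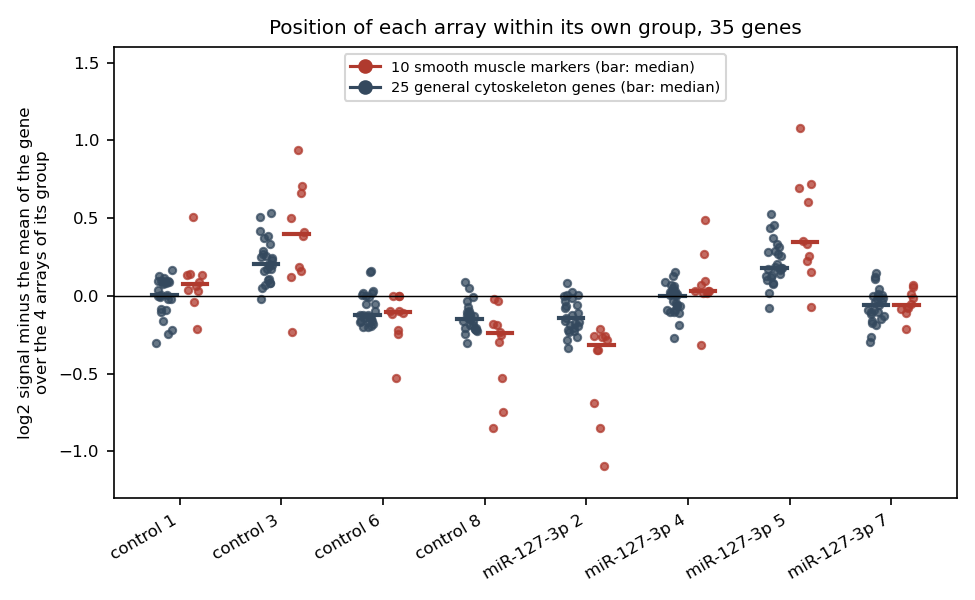
Log2 signal of each gene on each array minus the mean of the 4 arrays of the same group, for 10 smooth muscle markers (red) and 25 general cytoskeleton genes (dark blue); bars are medians. Control 3 and miR-127-3p 5 lie above 0 and control 8 and miR-127-3p 2 below it, more so for the smooth muscle markers.

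All 8 arrays lay on 1 slide in 2 rows, samples 1 to 4 in row 1 and 5 to 8 in row 2, with 2 arrays of each group per row. Control 3 and mimic sample 2 share row 1, and mimic sample 5 and control 8 share row 2. Within row 1 the median log2 fold change of the 35 genes was -0.10 and 9 were positive. Within row 2 it was 0.36 and 32 were positive. The direction was the same in both rows for 12 of the 35 genes (34.3%), as against 74.9% of all features.

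Smooth muscle markers shifted most between the rows. Their median was -0.15 in row 1 and 0.54 in row 2, and 2 of the 10 (Mylk and Tpm2) had the same direction in both. Acta2 gave -0.25 and 0.17, Cnn1 -0.42 and 1.23, and Myh11 -1.20 and 0.54. The genes that rose were positive in both rows: Cald1 gave 0.53 and 0.73, Flnc 0.52 and 0.94, Palld 0.43 and 0.92, and Zyx 0.20 and 0.45. For Cald1, Flnc and Palld this had to be so, because every mimic array lay above every control. Zyx was picked by its rise on the same arrays, so the rows are no separate support for these genes. With only 2 arrays per group in a row, 0 of the 35 genes passed in row 1 and 2 (Cald1 and Flnc) in row 2. With the row as a block in the fit of all arrays, the same 4 genes passed. Each of the 4 slide columns held 1 control and 1 mimic array, and with the column as a block Cald1, Flnc and Palld passed and Zyx did not (adjusted p = 0.127).

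**Figure D5:**
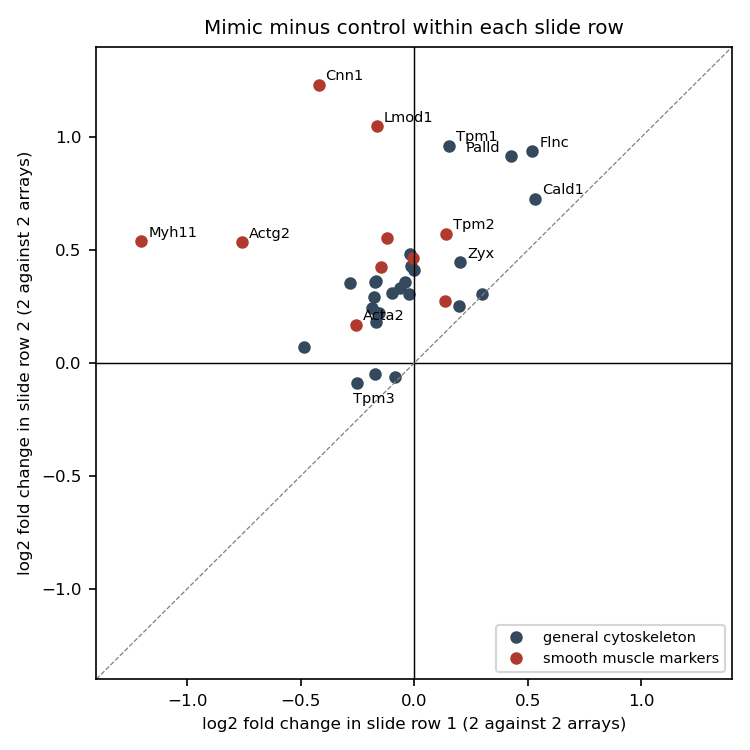
Log2 fold change (mimic minus control) of the 35 genes within slide row 1 (x axis) and within slide row 2 (y axis), 2 against 2 arrays each; the dashed line marks equal values. Most genes lie left of 0 and above 0. Cald1, Flnc, Palld and Zyx lie right of 0 and above it, which for Cald1, Flnc and Palld follows from groups that did not overlap.

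Regulators and partners of this machinery were read from 5 further lists of 89 genes, of which 84 were tested. Of these, 16 rose and 9 fell, 29.8% in all, against 34.2% of all features, with a median log2 fold change of 0.09. The count of rises was 23 without control 3, 6 without control 8 and mimic sample 2 together, and 8 with the slide column as a block. Among the SRF cofactors, Mrtfa rose by 0.46 (SE 0.14, adjusted p = 0.0300) and Mrtfb fell by 0.33 (SE 0.11, adjusted p = 0.0470), 2 calls that were lost in 11 and 15 of 20 alternatives. Srf itself changed by -0.01 (adjusted p = 0.979), and Myocd was not tested for lack of signal.

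Of 21 actin assembly and turnover genes, 4 were higher and 3 lower, where 15.9% of all features were higher and 18.3% lower. Formins build unbranched filaments, and 2 of them went opposite ways: Diaph3 fell by 1.75 (SE 0.11, adjusted p = 1.87e-05) and Diaph2 rose by 0.67 (SE 0.11, adjusted p = 0.00205), while Diaph1 gave 0.20 (adjusted p = 0.245). Diaph3 had the same call in all 20 alternatives. Pfn2, a profilin that feeds actin monomers to filaments, rose by 0.56 (SE 0.09), and Evl, an elongation factor related to Vasp, fell by 0.49 (SE 0.09), with adjusted p-values of 0.00172 and 0.00341.

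Further stress fibre linkers gave 3 rises and 2 falls among 20 genes, where 15.9% of all features rose and 18.3% fell. Lima1 (EPLIN), which stabilises actin bundles, rose by 0.70 (SE 0.10, adjusted p = 0.00112) and Pdlim2 by 0.48 (SE 0.12, adjusted p = 0.0157). Synpo, the gene of synaptopodin, fell by 0.83 (SE 0.16, adjusted p = 0.00428), and Svil, that of supervillin, by 0.43 (SE 0.11, adjusted p = 0.0152). Of 21 other focal adhesion genes, 5 rose and 2 fell. The largest change among those named by rule was in Lims2 (PINCH2), a partner of integrin-linked kinase, at 1.16 (SE 0.20, adjusted p = 0.00285), followed by the zyxin relative Ajuba at 0.66 (SE 0.15, adjusted p = 0.00926). Arhgef7 and Sorbs3, the gene of vinexin, fell by 0.37 and 0.42 (adjusted p = 0.00916 and 0.0187).

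Markers of other cells that carry contractile genes were read beside these results. The pericyte markers Rgs5 and Kcnj8 were not well above background on any array, and of 4 tested markers of pericytes and vascular smooth muscle 0 rose and 1, Mcam, fell (-0.43). The summed signal of that list, in units of the 75th percentile of the array, was 37.9 to 49.7 in controls and 38.9 to 48.3 with the mimic. For skeletal muscle, a source of filamin C, 0 of 10 tested markers passed (limma; 0 at an unadjusted p under 0.05 too), Ckm was not well above background on any array, and the summed signal was 51.6 to 84.3 in controls and 49.9 to 86.8 with the mimic. Most of that sum came from Acta1.

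Macrophage markers rose in 8 of 9 cases, with sums of 36.1 to 45.3 in controls and 63.9 to 74.9 with the mimic. Keratinocyte sums were 11.1 to 21.0 and 15.8 to 27.4 (1 of 5 tested rose), endothelial sums 12.9 to 16.8 and 14.8 to 19.1 (1 of 3 rose), and melanocyte and Schwann sums 6.70 to 9.21 and 5.81 to 9.58 (1 of 5 rose). Most of the macrophage sum came from Itgam, which had the smallest change of that list (0.51) and groups that overlapped. Of the fibroblast markers, 1 rose (Dcn, 1.18) and 1 fell (Pdgfra, -0.97), with sums of 1262 to 1475 in controls and 1394 to 1491 with the mimic. The part of these cells in the rise of Cald1, Flnc, Palld and Zyx was not tested.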

How the data were processed

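Total RNA of 8 samples was labelled with Cy3 and hybridised to 1-colour arrays. The authors' scanner files hold intensity values per spot from Agilent Feature Extraction 11.5.1.1, background-subtracted and detrended, as the file headers record. The deposited table of values holds log2 values, and equals the log2 processed signal minus 1 constant per array (SD over probes at most 2.78e-07). The series' design text names GeneSpring 14.9.1; its settings are not stated in the sources used.

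Control spots (3671 of 62976) and outlier spots were left out, and spots of a probe were averaged, giving 55681 probes. The 75th percentile of each array was subtracted on the log2 scale. Accessions matched symbols in RefSeq's GRCm38.p6 table for 28331 probes. Probes well above background on at least 4 arrays were kept, with the brightest probe per gene. The test between groups was that of limma 3.58.1 under R 4.3.3 (two-sided, Benjamini-Hochberg over all features, threshold 0.05, no block). It was tested on simulated data in which each gene was drawn independently. That simulation therefore cannot show how the test behaves where genes shift together on an array, as they did here. No set test was made.

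The members and lists were chosen with earlier results of these data known. Values on every array are given for members that passed, the 10 smooth muscle markers and the tropomyosins; of each further list but 1, which is counted in the totals and not reported here by gene, the 2 genes per direction with the smallest p among those that passed, with others named after their values were seen. The alternatives were normexp (offset 50, on the median signal, since the files used hold no mean signal), quantile normalization, other filters, averaged probes, slide position, the value table and leaving out arrays.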

Additional observations from a re-analysis of the deposited data

Results flagged for a closer look

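In 4 of 70 gene-and-group sets of 4 arrays, 1 array stood apart from the other 3 by Dixon's test, which chance does in about 1 of 20 sets. Control 3 was high for Tpm2 (7.85, the other controls 7.13 to 7.23), for Actn1 (3.91, the others 3.18 to 3.28) and for Pdlim5 (2.17, the others 1.62 to 1.69). Mimic sample 5 was high for Cnn3 (6.54, the other mimic arrays 6.15 to 6.19). These are the arrays on which most of the 35 genes were the highest of their group.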

How the results depend on the processing

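Cald1 and Flnc passed in 19 of 20 alternatives each, Palld in 16 and Zyx in 6; Cald1 (adjusted p = 0.0768) and Flnc (adjusted p = 0.0839) were lost in slide row 1 alone. Leaving out 1 array at a time gave 3 to 6 rises and 0 falls among the 35 genes, 3 to 5 rises and 0 falls in the general cytoskeleton, and 0 to 1 rise (Tpm2, without control 3) and 0 falls among the smooth muscle markers. It gave median log2 fold changes of 0.06 to 0.23 (general cytoskeleton) and 0.12 to 0.31 (smooth muscle markers), 12 to 23 rises and 7 to 10 falls in the further lists, and 1864 to 2899 rises and 2456 to 3073 falls over all features. Quantile normalization gave 1 fall among the 35 genes, also 1 in the general cytoskeleton (Tpm3). Without a filter on dim probes, where more features enter the adjustment, the rises were 1644 and the falls 2013 over all features, with 2 rises among the 35 genes (2 in the general cytoskeleton) and 8 rises and 4 falls in the further lists. With the slide column as a block the rises were 1780 over all features and 8 in the further lists. Slide row 1 alone, with fewer arrays, gave 768 rises and 991 falls over all features, 0 rises among the 35 genes (0 in the general cytoskeleton), 1 rise and 2 falls in the further lists, and medians below 0 for the general cytoskeleton (-0.064) and the smooth muscle markers (-0.15). Slide row 2 alone gave 685 and 926 over all features, 2 rises among the 35 genes (2 in the general cytoskeleton), 3 rises and 3 falls in the further lists, and medians of 0.33 and 0.54. With control 3 and mimic sample 5 both left out, 1 smooth muscle marker rose. With control 8 and mimic sample 2 both left out, the rises were 1730 over all features, 2 among the 35 genes (2 in the general cytoskeleton) and 6 in the further lists. Where arrays were not fewer and the features tested were the same, the cause was not tested. The number of arrays, 4 per group, limits the precision, and Pxn, above background on 3 of the 4 mimic arrays, is the least certain in signal. Pairing by replicate number was not possible, since the groups share none in the labels; pairing by slide column, as a block of 1 control and 1 mimic array, gave 3 rises among the 35 genes, Zyx being lost.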
